A study of Mus musculus with 16 samples.

Results

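Autophagy and lysosome genes were followed in hypothalami from mice of the inbred strain C57BL/6N kept on diets of graded protein content. The 39 members were taken by gene symbol from the deposited count table, and all 39 were found among its 47069 genes. The mice received 8 diets, with 60% or 20% of energy as fat crossed with 1%, 2.5%, 5% or 20% of energy as protein. Each diet had 2 libraries, so 4 libraries stood at each protein level and 8 at each fat level. The labels name no allele or drug for any group. They leave unsaid whether a diet's libraries come from different animals, so p-values reflect only how far these samples scatter, and that scatter may be technical. The comparisons ask which transcripts follow dietary protein at a fixed fat content, in a study concerned with feeding, body weight and mTOR. Because protein and fat are shares of energy, the remaining share changes with them, and its part cannot be told apart from theirs.

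Autophagy encloses cytoplasm in a double membrane, the autophagosome, and delivers it to the lysosome, where acid hydrolases break it down. The ULK1 kinase complex starts the process, a lipid kinase complex around Becn1 and Pik3c3 marks the membrane, and ubiquitin-like conjugation steps attach Atg8 proteins (the LC3 and GABARAP families) to it. Receptors such as Sqstm1 tie cargo to the Atg8 proteins. mTORC1, the amino acid sensitive kinase complex, restrains both ULK1 and the transcription factors Tfeb and Tfe3, which drive many lysosomal genes. In the hypothalamus, autophagy in appetite neurons has been linked to feeding control. Because these controls act largely on proteins, transcript counts show only part of the pathway.

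Total counts ran from 17731242 to 18511818 per library. All 12 hypothalamic markers, among them Hcrt, Pmch, Oxt and Avp, were counted in every library. The mitochondrially encoded genes took a low share in 3 of the 4 libraries at 1% protein (1.54% and 1.61% at 60% fat, 1.78% in replicate 1 at 20% fat), where the other 13 ran from 2.19% to 3.20%. The remaining library at 1% protein, replicate 2 at 20% fat, had the highest mitochondrial share, and it carried, like replicate 2 of the diet with 20% fat and 2.5% protein, cortical neuron markers (5074 and 10337 counts of Slc17a7, against 1267 to 2513 elsewhere). After the account by role, the members called at 1% protein are given again with these libraries left out.

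The stretches before the start site are shown for 3 members, because TFEB and TFE3 bind an E-box with the core CACGTG in many lysosomal promoters. The sequences are RefSeq's (build GRCm38.p6), each the 250 bases before the annotated start, 5′ to 3′ on the gene's strand, with every CACGTG in capitals. Lamp1 is shown as the member with most copies, Bnip3 as the only riser at 1% protein whose promoter holds one, and Gabarapl1 as the riser with the largest change.
Lamp1, chr8:13158911-13159160, plus strand: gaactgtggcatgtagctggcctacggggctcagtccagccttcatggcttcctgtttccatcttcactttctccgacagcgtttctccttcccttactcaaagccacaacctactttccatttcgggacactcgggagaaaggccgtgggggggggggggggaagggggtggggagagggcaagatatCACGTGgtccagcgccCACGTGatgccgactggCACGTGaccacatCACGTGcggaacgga
Bnip3, chr7:138909507-138909756, minus strand: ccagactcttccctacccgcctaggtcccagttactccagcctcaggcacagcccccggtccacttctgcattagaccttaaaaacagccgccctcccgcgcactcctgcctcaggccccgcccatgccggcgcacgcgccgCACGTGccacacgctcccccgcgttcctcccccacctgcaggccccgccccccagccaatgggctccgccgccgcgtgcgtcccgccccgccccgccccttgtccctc
Gabarapl1, chr6:129532942-129533191, plus strand: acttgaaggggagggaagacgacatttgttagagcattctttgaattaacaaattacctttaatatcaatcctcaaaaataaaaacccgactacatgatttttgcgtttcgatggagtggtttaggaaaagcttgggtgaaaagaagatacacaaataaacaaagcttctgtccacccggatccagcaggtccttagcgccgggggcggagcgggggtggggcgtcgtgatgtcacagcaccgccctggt
Lamp1 held 4 copies, starting 61, 45, 28 and 15 bases before its start site, Bnip3 held 1 copy 108 bases before it, and Gabarapl1 held none. Promoters of 31 members were matched, 35 start sites in all, and windows of 300 bases (250 before and 50 after the start) were searched on both strands. CACGTG occurred at 10 of these 35 start sites (28.6%), in Atg14, Atg3, Atg5, Atg7, Bnip3, Ctsd, Ctsl, Gaa, Lamp1 and Mcoln1, and in 7.15% of all 32851 windows. The FoxO core GTAAACA was in no member's window and in 3.65% of all. Of the 5 members that rose at 1% protein, all with a matched promoter, 1 held CACGTG, and Hexa, which fell, held none. A match is a string of letters and not a shown binding site.

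A pair of members could not be measured, and 37 were tested. Map1lc3b, which encodes LC3B, the Atg8 protein used most often to mark autophagosomes, was listed at 0 in all 16 libraries. Its gene lies on chromosome 8 (121590361 to 121598760), and all of its exonic bases lie inside the annotated span of Gm20388, a gene of 4434882 bases. Gm20388 ran from 173 to 198 CPM (counts scaled to a common library size with edgeR), with a log2 change of 0.10 ± 0.04 (SE) from 20% to 1% protein (adjusted p = 0.0955, edgeR's quasi-likelihood test), and its counts cannot be assigned to Map1lc3b. Atg2a, a lipid transfer protein of the growing autophagosome on chromosome 19 (6241668 to 6262335), was also listed at 0, although no annotated gene overlaps it. Such zeros are not levels: Gfap, an abundant astrocyte gene, was listed at 0 too. The deposited length equals the whole gene span with introns for 31 of the 39 members, so counts can include introns, and levels are compared here only between libraries of the same gene. Of the 39 members 18 overlap another annotated gene, and 9 a coding one. Among the measured members with a coding overlap, spans of other genes cover 85.3% of the exonic bases of Becn1, 64.4% of Lamp1, 63.7% of Ctsd and 44.0% of Atg9a. The rest run from 0.99% to 22.3%. How reads shared between genes were counted is not stated.

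Members differed little between libraries. For 36 of the 37 the highest library lay between 1.12-fold (Nbr1) and 1.5-fold (Tfeb) above the lowest, and for Rb1cc1 3.97-fold. The map of all members by library shows that the columns at 1% protein with a low mitochondrial share stand out from the others.

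**Figure D1:**
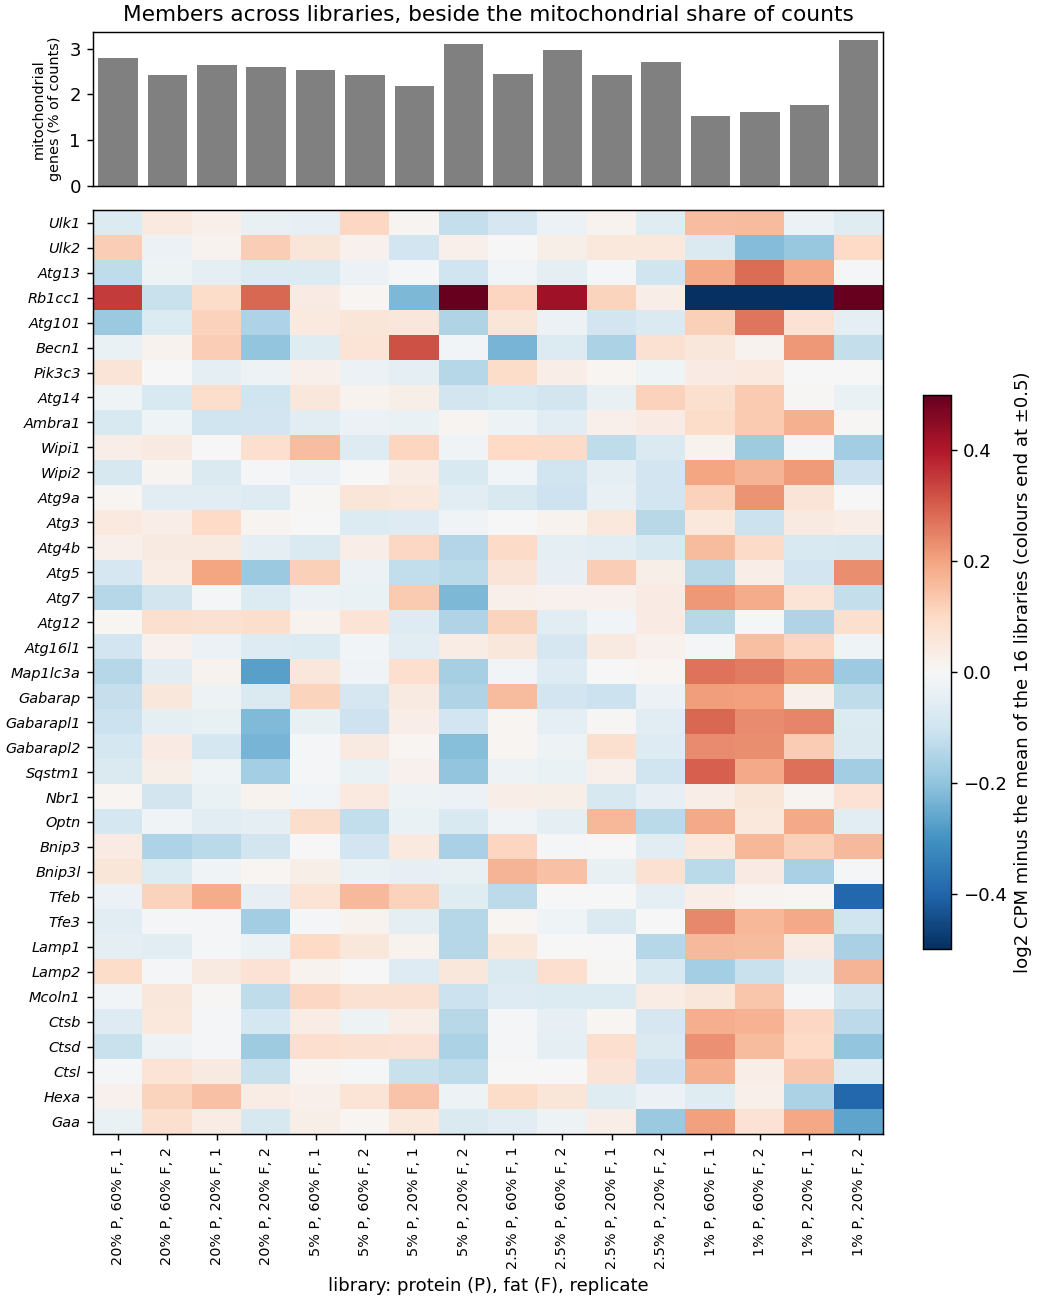
Each cell is the log2 CPM of a member (rows, by role) in a library (columns, from 20% to 1% protein) minus that member's mean over the 16 libraries, and the bars above give the share of counts from mitochondrial genes in percent. The 3 columns with shares of 1.54%, 1.61% and 1.78% are mostly red and the last column, also at 1% protein, is not. Rb1cc1 runs past the end of the colour scale.

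The lowest protein level was set against the highest over both fat levels. At 1% protein, Gabarapl1, Atg13, Gabarapl2, Bnip3 and Ambra1 rose by 1.13- to 1.22-fold and Hexa fell by log2 0.22 ± 0.07, while 31 of the 37 did not pass. These 6 are 16.2% of the members tested, and 14.3% of all 16646 genes were called in the same comparison, so the members' share lay near the background. Upward, 13.5% of members and 8.26% of all genes were called, and downward 2.70% and 6.01%. The median log2 change was 0.07 over the members, with 28 of 37 above 0, and 0.0035 over all genes. The test was edgeR's quasi-likelihood F test with Benjamini-Hochberg adjustment over all genes at 0.05.

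**Figure D2:**
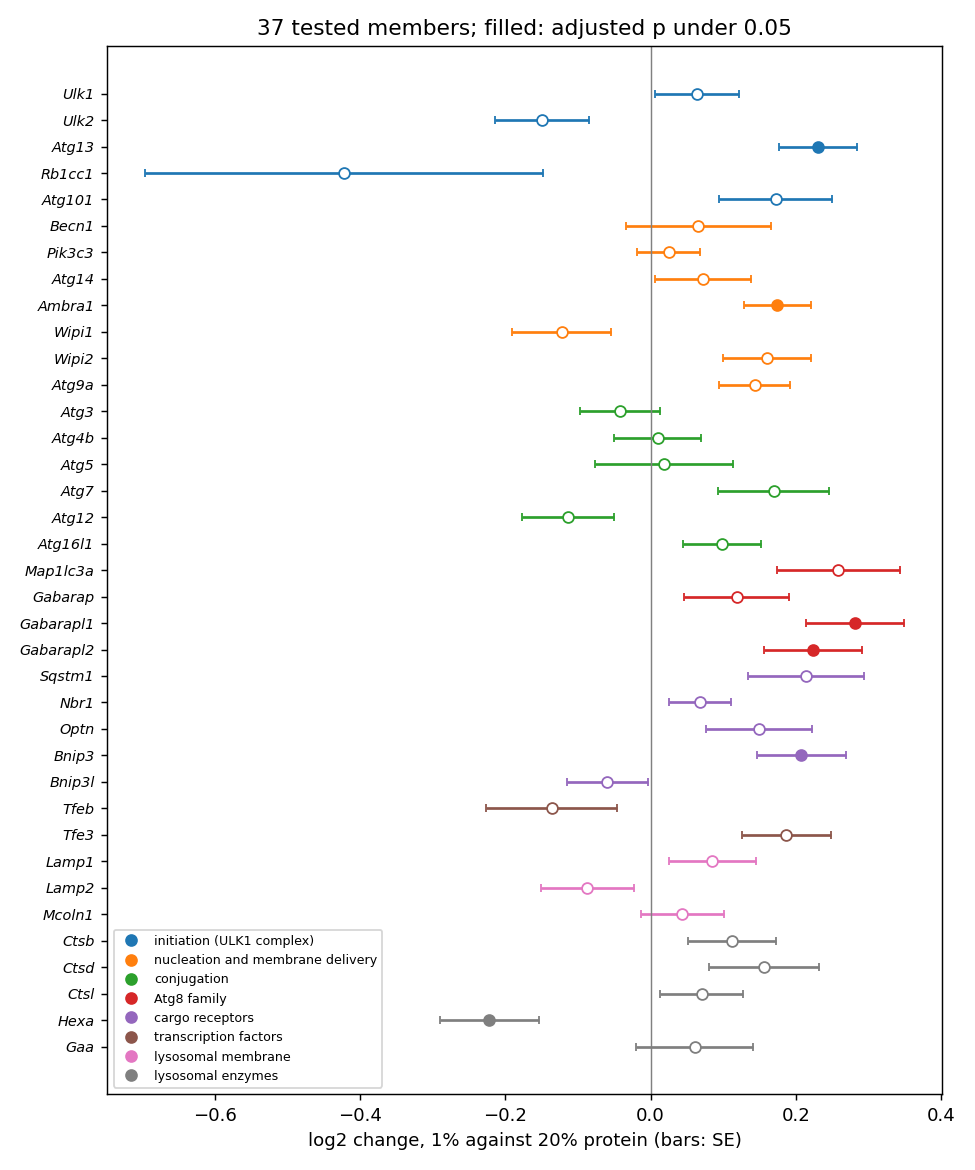
Points are log2 changes from 20% to 1% protein for the 37 tested members with their SE, coloured by role, and filled points passed the adjusted threshold. The 6 filled points are Atg13, Ambra1, Gabarapl1, Gabarapl2 and Bnip3 to the right of 0 and Hexa to the left. Rb1cc1 has the widest bar.

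Among the 5 initiation genes Atg13 rose and 4 did not pass. Atg13 is the subunit that links the ULK1 kinase to its scaffold and is itself a substrate of mTORC1. At 1% protein it stood at 178 and 189.7 CPM at 60% fat and at 178 and 155 CPM at 20% fat. At 20% protein it stood at 143 and 154 CPM at 60% fat and at 151 and 149 CPM at 20% fat. All libraries at 1% lay above all at 20%, though replicate 2 of 20% fat did so by little. The log2 change was 0.23 ± 0.05 (SE, n = 4 each, adjusted p = 0.0118, edgeR's quasi-likelihood test). Atg13 lies on chromosome 2 (91674618 to 91710576, GRCm38) and overlaps no other annotated gene. Ulk1 and Ulk2, the kinases, had changes of 0.06 and -0.15, and Atg101, which stabilises Atg13, had 0.17. Rb1cc1, the FIP200 scaffold, had -0.42 ± 0.27 (adjusted p = 0.301), but -0.92 ± 0.17 (adjusted p = 0.000864, edgeR's quasi-likelihood test) without the 2 libraries with cortex markers.

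Rb1cc1 is described because its libraries spread most, a choice made after its values were seen. It stood at 19.1 and 31.4 CPM in the libraries of 60% fat with 1% protein and at 30.7 CPM in replicate 1 of 20% fat with 1% protein, which are the 3 libraries with the low mitochondrial share. The other 13 ran from 39.2 to 76.0 CPM, and the highest was replicate 2 of 20% fat with 1% protein. The libraries at 1% protein thus held both its lowest and its highest values. Across all genes tested, gene length was set against the deviation from the mean of all libraries. The same 3 libraries had Spearman correlations of -0.26, -0.17 and -0.26, and that replicate 2 had 0.17. The other libraries ran from -0.14 to 0.315, the highest in replicate 2 of 20% fat with 20% protein. The part of either measure in these values was not tested. Rb1cc1 was the only member lowest in exactly those 3 libraries, and 11 members were highest in them: Ambra1, Atg13, Atg9a, Ctsb, Ctsd, Gabarapl1, Gabarapl2, Map1lc3a, Sqstm1, Tfe3 and Wipi2. The share of all genes with either pattern was not counted, so these counts cannot be set against a background.

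Among the 8 genes of nucleation and membrane delivery 1 rose, 6 did not pass and Atg2a had no counts. Ambra1, a scaffold that joins the Becn1 complex to the ULK1 kinase, stood at 132 and 136 CPM at 60% fat with 1% protein and at 140.5 and 125 CPM at 20% fat with 1% protein. At 20% protein its values were 118 and 122 CPM at 60% fat and 116 and 116 CPM at 20% fat. The groups did not overlap, and the log2 change was 0.17 ± 0.05 (SE, n = 4 each, adjusted p = 0.0216, edgeR's quasi-likelihood test). Ambra1 also lies on chromosome 2 (91730134 to 91918849), on the plus strand, with Atg13 close by on the minus strand. Wipi2, which recruits the conjugation machinery, and Atg9a, a membrane protein that brings lipid, had 0.16 and 0.14 (adjusted p = 0.0801 and 0.0576, edgeR's quasi-likelihood test). The lipid kinase Pik3c3 and its partners Becn1 and Atg14 lay between 0.02 and 0.07, and Wipi1, a relative of Wipi2, at -0.12.

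No member of the conjugation group passed among 6. Atg7, the E1-like enzyme that starts both conjugation steps, had the smallest p of the group. It stood at 42.5 and 41.6 CPM at 60% fat with 1% protein and at 38.4 and 33.7 CPM at 20% fat with 1% protein. At 20% protein it stood at 33.2, 34.4, 36.3 and 34.9 CPM, so the groups overlapped through the replicate 2 at 20% fat. Its log2 change was 0.17 ± 0.08 (adjusted p = 0.139, edgeR's quasi-likelihood test). Atg3, the E2-like enzyme, Atg4b, the protease that trims Atg8 proteins, Atg5, Atg12 and Atg16l1, which together attach them, ran from -0.11 (Atg12) to 0.10 (Atg16l1).

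The Atg8 family had 2 risers among 4 measured genes, and all 4 had positive changes. Gabarapl1, a GABARAP-like protein abundant in neurons, stood at 781 and 753 CPM at 60% fat with 1% protein and at 758 and 610 CPM at 20% fat with 1% protein. At 20% protein it stood at 594 and 620 CPM at 60% fat and at 624 and 549 CPM at 20% fat. Of the libraries at 1%, 3 lay above the other 13 libraries of the study, and replicate 2 of 20% fat lay inside the range at 20% protein. The fitted change was log2 0.28 ± 0.07 (SE, n = 4 each, adjusted p = 0.0134, edgeR's quasi-likelihood test). Gabarapl1 lies on chromosome 6 (129533160 to 129542346), and 28.3% of its exonic bases lie under exons of 2 other annotated genes, 1700101I11Rik and Gm44243, which held 307 and 0 counts against 188206 for Gabarapl1.

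Gabarapl2, the GATE-16 protein of late autophagosome steps, stood at 59.8 and 59.6 CPM at 60% fat with 1% protein and at 55.5 and 48.3 CPM at 20% fat with 1% protein. At 20% protein it stood at 47.8 and 52.2 CPM at 60% fat and at 47.8 and 43.2 CPM at 20% fat, so the groups overlapped through replicate 2 of 20% fat. It rose by log2 0.22 ± 0.07 (SE, n = 4 each, adjusted p = 0.0389, edgeR's quasi-likelihood test). Map1lc3a, the LC3A gene, whose libraries are given by a choice made after its values were seen, had a change of 0.26 ± 0.09 that missed the threshold (adjusted p = 0.051), with 308, 305, 296 and 224 CPM at 1% and 231, 245, 257 and 211 CPM at 20% protein. Gabarap, the founding member of its subfamily, had 0.12 (adjusted p = 0.269).

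**Figure D3:**
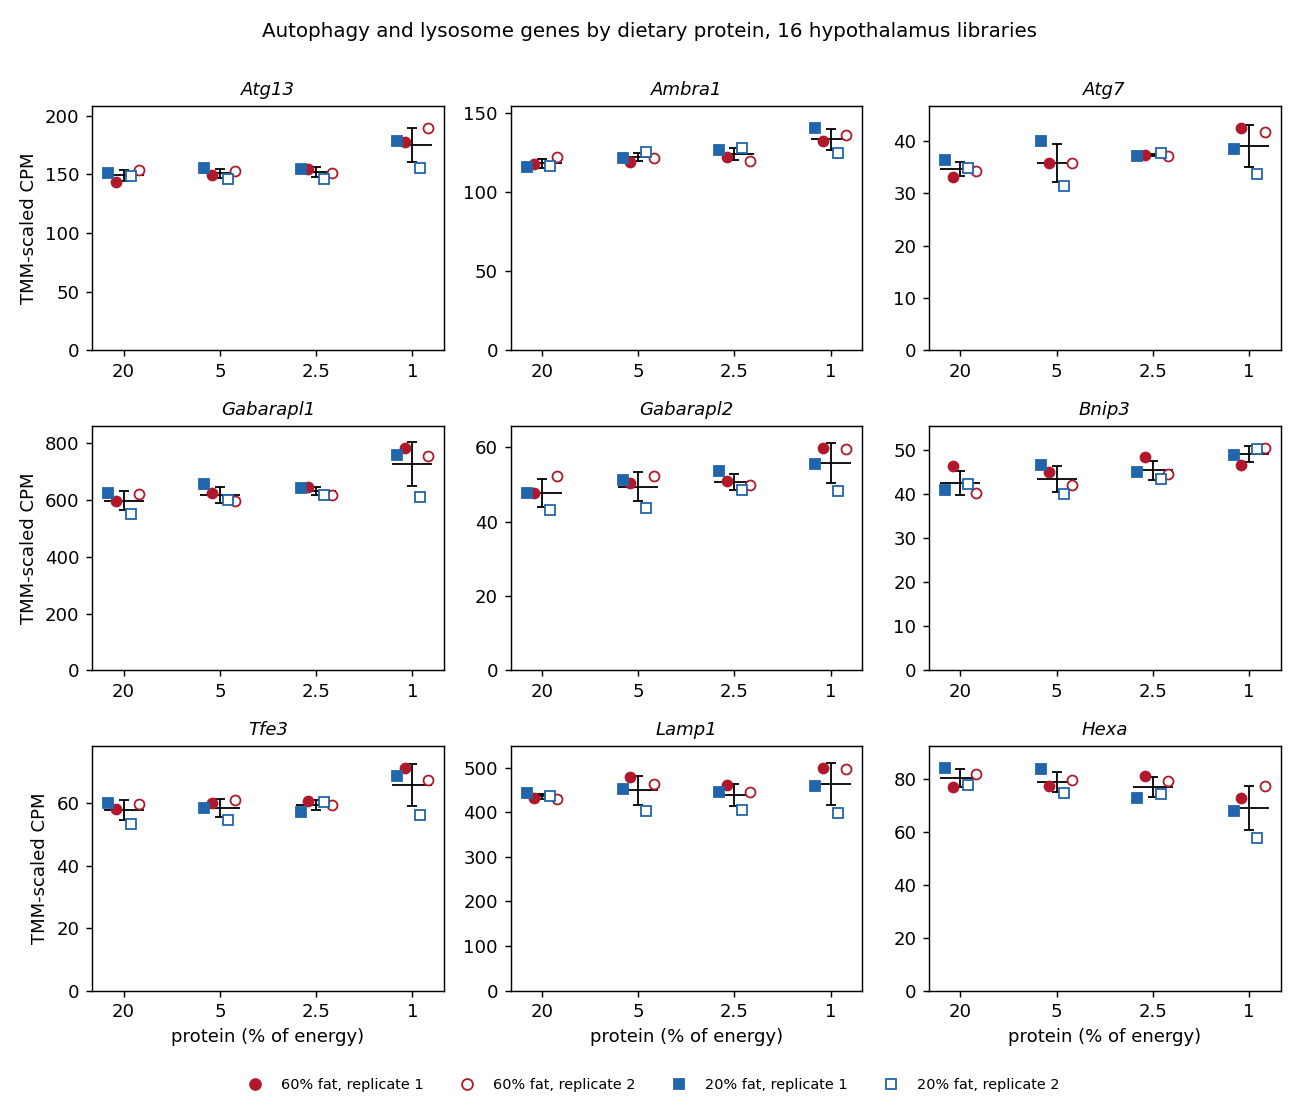
TMM-scaled CPM on the vertical axes is plotted against dietary protein in percent of energy for 9 members, with circles for 60% fat and squares for 20% fat, filled for replicate 1 and open for replicate 2. Horizontal bars and whiskers give the mean and SD of the 4 libraries at each protein level. For Gabarapl1 the open square at 1% protein (610 CPM) lies apart from the other 3 (753 to 781 CPM), and for Hexa it is the lowest point (57.8 CPM).

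Of the 5 cargo receptors Bnip3 rose and 4 did not pass. Bnip3 is a mitophagy receptor of the outer mitochondrial membrane. It stood at 46.5 and 50.4 CPM at 60% fat with 1% protein and at 48.7 and 50.2 CPM at 20% fat with 1% protein. At 20% protein it stood at 46.2 and 40.3 CPM at 60% fat and at 40.9 and 42.2 CPM at 20% fat. The groups did not overlap, replicate 2 at 20% fat stood with the others at 1%, and the change was log2 0.21 ± 0.06 (SE, n = 4 each, adjusted p = 0.0351, edgeR's quasi-likelihood test). On chromosome 7 (138890836 to 138909519), 57.9% of its exonic bases lie inside the spans of an antisense gene and a pseudogene, 22.3% under their exons. No source used here states the strand setting. Neither of these genes has an entry among the deposited genes, so no counts can be set beside those of Bnip3. Bnip3l, its paralogue, had -0.06. Sqstm1, the p62 receptor that autophagy itself degrades, had 0.21 ± 0.08 (adjusted p = 0.0781), and Nbr1, its relative, and Optn, a receptor for ubiquitinated cargo, had 0.07 and 0.15. The members all of whose libraries at 1% lay above all at 20% were Atg13, Ambra1 and Bnip3, or 8.11% of those tested, against 7.40% of all genes tested.

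The regulators Tfeb and Tfe3 did not pass with all libraries in edgeR's quasi-likelihood test, but Tfe3 passed in 7 of 27 alternatives, DESeq2 and the replicate block among them, and Tfeb, with a negative change, in the one with a surrogate variable. Tfe3 stood at 71.3 and 67.6 CPM at 60% fat with 1% protein, 68.7 and 56.2 CPM at 20% fat with 1% protein, and 58.1, 59.9, 60.1 and 53.5 CPM at 20% protein. Its change was 0.19 ± 0.06 (adjusted p = 0.0511, edgeR's quasi-likelihood test), while Tfeb had -0.14 ± 0.09 (adjusted p = 0.312). The values of Tfe3 again overlapped between levels through replicate 2 of 20% fat.

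Of the 8 lysosomal members 1 passed, where 14.3% of all genes were called. Without the libraries with cortex markers 6 passed, Lamp2 and Hexa downward, where 34.8% of all genes were called. Lamp1 and Lamp2, the main membrane glycoproteins, had changes of 0.08 and -0.09, and Mcoln1, the TRPML1 calcium channel, 0.04, none of which passed. Lamp1 stood at 499, 498, 458 and 398 CPM at 1% protein and at 433, 429.7, 443 and 437 CPM at 20% protein, in the order 60% fat then 20% fat, so its lowest and highest libraries were both at 1%. Among the enzymes Hexa fell and 4 did not pass. Hexa, the alpha subunit of beta-hexosaminidase, stood at 72.8 and 77.2 CPM at 60% fat with 1% protein and at 68.0 and 57.8 CPM at 20% fat with 1% protein. At 20% protein it stood at 77.0 and 82.0 CPM at 60% fat and at 84.1 and 77.8 CPM at 20% fat. A single library at 1% protein, replicate 2 of 60% fat, lay inside the range at 20%, and the change was -0.22 ± 0.07 (SE, n = 4 each, adjusted p = 0.04, edgeR's quasi-likelihood test). Hexa lies on chromosome 9 (59539540 to 59565109), where 15.4% of its exonic bases lie inside the span of Tmem202, 12.8% under its exons. Tmem202 held 750 counts against 22362 for Hexa. The cathepsin proteases Ctsb, Ctsd and Ctsl had 0.11, 0.16 and 0.07 and the glucosidase gene Gaa 0.06.

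These calls depended on single libraries. Without the 2 libraries with cortex markers 21 of 37 members were called (56.8%, against 34.8% of all genes), 16 upward (17.5% of all genes) and 5 downward (17.3%), all 6 above among them. The 5 downward were Ulk2 (-0.23), Rb1cc1 (-0.92), Atg12 (-0.18), Lamp2 (-0.16) and Hexa (-0.16). Among the 16 upward, those that had not passed with all libraries were Wipi2, Atg9a, Atg7, Map1lc3a, Sqstm1, Optn, Tfe3, Lamp1, Ctsb, Ctsd and Gaa, from 0.14 (Lamp1) to 0.35 (Map1lc3a). By edgeR's quasi-likelihood test Sqstm1 then had 0.30 (adjusted p = 0.000747) and Gaa 0.15 (adjusted p = 0.0268). The level of 1% protein was then made up of the 3 libraries with the low mitochondrial share. Without those 3 instead, a setting chosen after seeing the data that leaves at 1% protein only the library with cortex markers, assumed to vary like the other groups, Hexa alone was called (2.70%, against 2.37% of all genes, 0.907% upward and 1.47% downward). Its change was then -0.47 and that of Bnip3 0.26, while Atg13, Ambra1, Gabarapl1 and Gabarapl2 had 0.048, 0.058, 0.024 and 0.047. Removal of 1 library at a time changed the 6 to 0 (replicate 1 of 20% fat with 1% protein), 19 (replicate 2 of that diet, where 33% of all genes were called), 2 and 1 (replicates 1 and 2 of 60% fat with 1% protein), 3 (either replicate of 60% fat with 20% protein), 1 (20% fat with 20% protein, replicate 2) and to between 4 and 6 for the other 9 libraries. Without replicate 1 of the diet with 20% fat and 20% protein the 5 called held only 2 of the 6, Atg13 and Gabarapl1, with Atg101, Map1lc3a and Tfe3 in place of the rest. The fit on the 8 libraries at 1% and 20% protein alone called 0, with 9 at an unadjusted p under 0.05. Apart from the 33%, the share of all genes called is not given for the removals of 1 library or for this fit. Those member counts therefore stand without that background and are not read as results about the members. Of 27 alternatives Atg13 and Hexa failed to pass in 6 each, Gabarapl1 in 7, Ambra1 in 10, Bnip3 in 14 and Gabarapl2 in 16, and none changed sign.

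Cell type markers moved with the comparison as well. Summed over their lists, 8 endothelial markers ran from 165 to 191 CPM at 1% protein and from 213 to 253 CPM at 20%, with 7 of 8 lower and past the threshold. Of 8 thalamic markers 3 rose, and their sums were 1039 to 1354 CPM against 852 to 976 CPM. Among the astrocyte markers 3 rose and 1 fell of the 7 with counts, with sums of 3489 to 3879 CPM against 3316 to 3434 CPM. Of the 9 microglial markers with counts (P2ry12 was at 0) 2 fell, Siglech and Fcrls, and the sums overlapped at 267 to 396 CPM against 326 to 384 CPM. The sums of the neuronal (5220 to 5526 against 5245 to 5400 CPM) and oligodendrocyte lists (8104 to 10615 against 9243 to 11059 CPM) overlapped too, with 1 neuronal marker up, 1 down and 2 oligodendrocyte markers down. Choroid plexus markers ran from 52.8 to 263 CPM against 47.8 to 59.8 CPM, with 1 of 7 up. In whole tissue, fewer cells of a type and less RNA per cell cannot be told apart, and the part of these shifts in the members' values was not tested.

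Other genes of the pathway were taken from 4 lists outside the members, and their counts stand beside the 8.26% of all genes called upward and 6.01% called downward at 1% protein. Of 17 tested genes of the V-ATPase, the proton pump that acidifies lysosomes, 5 rose and 12 did not pass (median 0.12). Its leading risers were Atp6v0e2 (log2 0.31 ± 0.07 SE, 506 against 407 CPM), Atp6v1e1 (0.27), Atp6v1g1 (0.25) and Atp6v1g2 (0.23). Of 47 further autophagy genes 7 rose, 2 fell and 38 did not pass (median 0.07). Pink1, the kinase that marks damaged mitochondria, rose most, from 551 ± 36.6 to 729 ± 82.5 CPM (SD, n = 4 each). Its log2 change was 0.40 ± 0.07 (SE) with an adjusted p of 0.00196 by edgeR's quasi-likelihood test. Fkbp8, another mitophagy receptor, rose by 0.29, and Atg16l2, a paralogue of Atg16l1, and Trp53inp2 changed by -0.29 and -0.28.

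Of 39 further lysosomal enzymes 4 rose, 7 fell and 28 did not pass (median 0.03). The 4 with the largest changes were cathepsins that fell: Ctsk (-0.63), Ctsc (-0.49), Ctsh (-0.40) and Ctss (-0.33). Ctss, a cathepsin typical of microglia and other antigen-presenting cells, went from 57.5 ± 2.5 CPM at 20% protein to 45.8 ± 1.49 CPM at 1% (SD, n = 4 each; adjusted p = 0.00179, edgeR's quasi-likelihood test), and all libraries at 1% (44.7 to 48.0 CPM) lay below all at 20% (54.1 to 59.6 CPM). The microglial marker values given above stand beside this one. Of 25 further genes of the lysosomal membrane and sorting 3 fell and 22 did not pass (median -0.06): Tpcn2, a channel (-0.37), Mfsd8 (-0.28) and Igf2r, the receptor that sorts hydrolases (-0.19). Of 27 alternatives Pink1, Ctss, Atp6v0e2 and Atp6v1e1 failed to pass in 1 each, Atg16l2 and Trp53inp2 in 3, Ctsh in 4, Ctsk and Tpcn2 in 6, and the other named genes in 9 to 12. Without the 3 libraries of low mitochondrial share, where 1 library stands for 1% protein, the log2 values of Pink1, Fkbp8, Atp6v0e2, Ctsc and Ctss were 0.17, 0.010, 0.089, -0.16 and -0.32.

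The intermediate diets, set against the same 20% protein libraries, gave no call among the members. At 2.5% protein the members' changes had a median of 0.01, with 0 of 37 called and 0 at an unadjusted p under 0.05 (0.00601% of all genes called, edgeR's quasi-likelihood test; DESeq2 also 0 members). At 5% protein the median was 0.01, again with 0 called and 0 at an unadjusted p under 0.05 (0.03% of all genes, 0.018% higher and 0.012% lower; DESeq2 0). From 20% through 5% and 2.5% to 1% protein, the mean of Gabarapl1 went through 597 ± 34.5, 618 ± 27.9, 629.8 ± 14.7 and 726 ± 78.1 CPM (SD, n = 4 each). Atg13 averaged 149 ± 4.48, 151 ± 4.11, 152 ± 4.28 and 175 ± 14.5 CPM in the same order, and its first 3 levels differed by less than their SD. Hexa averaged 80.2 ± 3.37, 78.9 ± 3.86, 76.8 ± 3.85 and 69.0 ± 8.34 CPM.

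Along the linear slope from 20% to 1% protein, the model of the series' design text, 0 of 37 members passed and 5 had an unadjusted p under 0.05 (0.018% of all genes called, 0.012% upward, edgeR's quasi-likelihood test; DESeq2 0). Those 5 were Ambra1 (0.12), Gabarapl1 (0.19), Bnip3 (0.15), Gabarapl2 (0.16) and Map1lc3a (0.19). With protein on a log2 scale 5 members were called, 4 upward and 1 downward, where 7.88% of all genes were called.

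Fat content was compared over all protein levels, with 8 libraries each. No member passed for 60% against 20% fat (0.00601% of all genes called), and 4 had an unadjusted p under 0.05 in edgeR's quasi-likelihood test and in DESeq2, which also called 0 members. These were Lamp1 (log2 0.11 ± 0.04 SE), Gabarap (0.11), Gabarapl2 (0.11) and Pik3c3 (0.07), with adjusted p = 0.628 each. Lamp1 averaged 463 ± 26.8 CPM at 60% fat and 430.1 ± 24.0 CPM at 20% fat (SD, n = 8 each). The ranges at the 2 fat levels overlapped for all 37 members. The members' median was 0.05 and that of all genes -0.0044.

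Within each fat level 2 libraries stood at each protein level. At 60% fat Atg13 rose at 1% protein by log2 0.31 ± 0.08 (SE, n = 2 each, adjusted p = 0.0461, edgeR's quasi-likelihood test), and 36 members did not pass (4.25% of all genes called, 1.97% upward and 2.28% downward). Gabarapl1 had 0.34 (adjusted p = 0.0554), Map1lc3a 0.36 (0.0782), Atg101 0.32 (0.0791), Atg7 0.32 (0.0743) and Rb1cc1 -0.996 ± 0.34 (0.087). The call on Atg13 was lost in 13 of 25 alternatives. It was lost when any 1 of the 8 libraries at 60% fat, or any 1 of the 4 at 20% fat with 2.5% or 20% protein, was removed. The count of 1 became 7 and 8 when replicates 1 and 2 of 20% fat with 1% protein were removed (16.1% and 16.2% of all genes called), and 2 and 3 for those of 20% fat with 5% protein (8.14% and 8.18%).

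At 20% fat 0 of 37 passed and 4 had an unadjusted p under 0.05 (1.78% of all genes called, 0.601% upward and 1.18% downward), while DESeq2 called 1, downward. Hexa had -0.36 ± 0.09 (adjusted p = 0.0514, edgeR's quasi-likelihood test), Ambra1 0.19, Bnip3 0.25 and Gabarapl1 0.22. Removal of replicate 1 of 20% fat with 1% protein gave 1 call (1.80% of all genes), as did removal of either replicate at 20% fat and 5% protein (1.69%), and removal of replicate 2 at 1% protein gave 3 (4.73%). The difference of the protein change between the fat levels passed for no member and for no gene (0% of all genes called), with 3 members at an unadjusted p under 0.05 in edgeR's quasi-likelihood test, and DESeq2 called 0 members. Those 3 were Hexa (0.28 ± 0.12 SE), Lamp1 (0.25 ± 0.11) and Rb1cc1 (-1.02 ± 0.48), with adjusted p = 0.623 each. The plot of the protein change at each fat level shows these together.

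**Figure D4:**
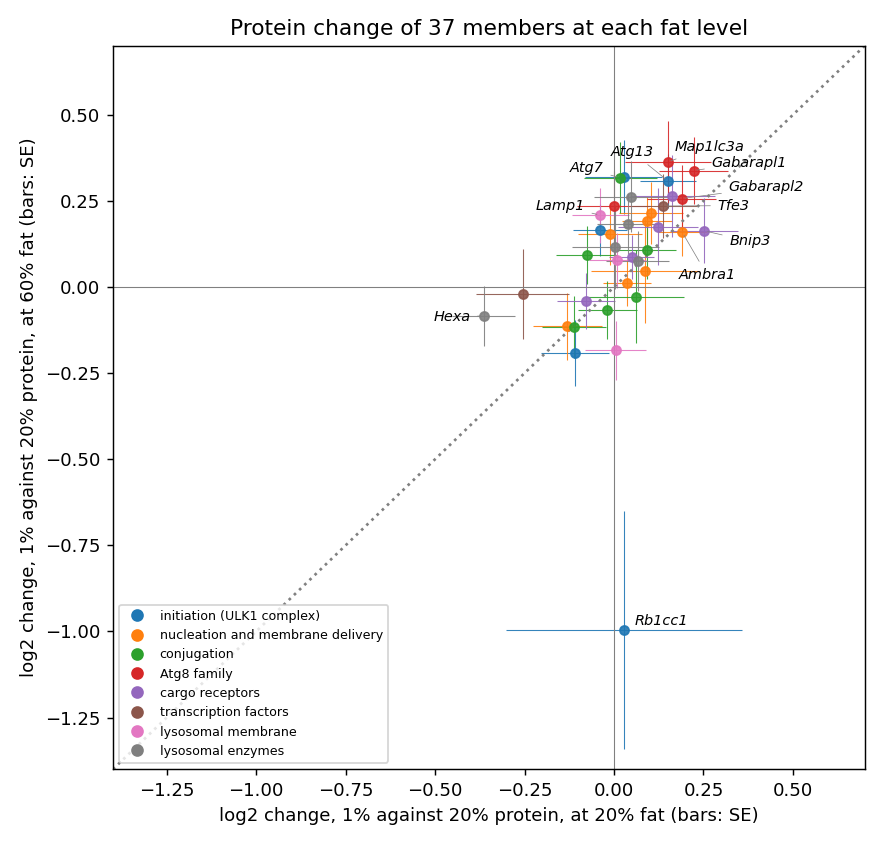
The log2 change from 20% to 1% protein at 60% fat (vertical) is plotted against that at 20% fat (horizontal) for the 37 members, with SE bars and colours by role; the dotted line marks equal changes. Rb1cc1 lies far below the line (-0.996 at 60% fat and 0.03 at 20% fat), and Hexa lies to the left (-0.36 at 20% fat and -0.08 at 60% fat).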

How the data were processed

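RNA sequencing counts of 16 hypothalamus libraries were used, grouped by the diets in the labels. The deposited table holds raw counts per gene, which the authors left unnormalised, with a deposited gene length in bases. Build GRCm38 and the tools HISAT2 2.1.0, featureCounts and edgeR are named per the submitters' processing notes. The annotation and strand setting are not given in the sources used here. Members matched GENCODE M21 by identifier. Totals ran from 17731242 to 18511818 counts, and library totals were alike in every group.

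Genes were kept with filterByExpr (minimum count 10), scaled by TMM and tested with edgeR 4.0.16 (R 4.3.3) quasi-likelihood F tests on all 16 libraries, with Benjamini-Hochberg adjustment over all genes at 0.05. Protein was fitted as 4 levels plus fat, as a slope with an interaction kept where its p was at or under 0.05, and as 8 diets. CPM values are TMM-scaled. Alternatives were median-ratio scaling, DESeq2 1.42.0, the likelihood ratio test, other filters, a replicate block, a surrogate variable (sva 3.50.0), an offset for gene length and fewer libraries. The steps were tested on simulated counts, and the share of changes recovered at each size is not given here.

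The members and lists were chosen with earlier results of these data known. Every member is named in its role; values per library are given for members past the threshold in any comparison and for the smallest p of each role at 1% protein. Of the other lists, at most the 4 largest changes past the threshold are named. Exceptions chosen after seeing values are stated.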

Additional observations from a re-analysis of the deposited data

Results flagged for a closer look

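Of 54 groups of 4 or 8 libraries examined for the 9 members given per library by the stated rule, 4 held a library far from the others by Dixon's test. The 8 libraries at a fat level span 4 protein levels, and these members were chosen partly by their change at 1% protein. The groups also share libraries, so a chance rate of 1 in 20 does not apply. Gabarapl1 stood at 610 CPM in replicate 2 of 20% fat with 1% protein, below the 753 to 781 CPM of the other libraries at 1% protein. Atg13 stood at 178 CPM in replicate 1 of 20% fat with 1% protein, above the 146 to 155 CPM of the other 7 libraries at 20% fat. Tfe3 in that same library stood at 68.7 CPM, against 53.5 to 60.4 CPM. Atg7 stood at 37.7 CPM in replicate 2 of 20% fat with 2.5% protein, against 37.1 to 37.2 CPM at that protein level, a gap of under 1 CPM.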

How the results depend on the processing

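At 1% against 20% protein the count of 6 members became 6 to 9, with the same 6 genes among them, under median-ratio scaling, DESeq2, the likelihood ratio test, the 1 CPM filter, a replicate block and the length offset. It became 4 with no filter (3 of the 6), 2 with a surrogate variable (1 of the 6), 21 without the libraries with cortex markers, 0 on the 8 libraries at 1% and 20% protein and 1 without the 3 libraries of low mitochondrial share (added after seeing the data; with no library left at 60% fat and 1% protein, the comparisons within a fat level were not run there). Leaving out 1 library gave 0 to 19. The slope's 0 became 5 with protein on a log2 scale. At 60% fat the 1 became 3 with DESeq2, 4 with the likelihood ratio test, with no filter and with the replicate block, 2 with the length offset, 0 with a surrogate variable, 9 without the cortex-marker libraries and 0 to 8 without 1 library. At 20% fat the 0 became 1 with DESeq2, the likelihood ratio test, either other filter, the replicate block or the length offset, 2 with a surrogate variable, 3 without the cortex-marker libraries and 0 to 3 without 1 library. The cause was not tested. At 1% against 20% protein 14.3% of all genes were called in the main fit and 34.8% without the cortex-marker libraries. A member count given without a share of all genes stands without its background and is not read as a result about the members. Counts for 2.5% and 5% protein, fat and the difference between fat levels stayed at 0 in every alternative run.

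Of the named genes, 3 that had not passed changed sign: Atg7 (-0.0029 with a surrogate variable and -0.065 without the 3 libraries of low mitochondrial share), Lamp1 (-0.038 and -0.10) and Tfe3 (-0.021 without those 3). With the replicate block 9 members were called at 1% protein, with the 6 among them. For same-numbered libraries, 7 of 28 pairs of diets had a correlation of their deviations over 0.1 (median 0.02, highest 0.34). These values do not settle whether the numbers mark a pairing or a batch. The number of libraries, 2 to 8 a group, limits the precision of every comparison.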
